A study of Homo sapiens with 30 samples.

Results

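Of the 60664 rows in the gene count table, 52 are genes of translation initiation factors, the proteins that bring an mRNA, the initiator tRNA and the ribosome together. They were found by symbol: 133 rows begin with EIF and a number from 1 to 6, and from these 4 kinase genes named EIF2AK and 77 pseudogenes were left out, while the 3 genes of the eIF4E-binding proteins were kept. The rule uses no measured value. Of the 52, 46 were expressed enough to be tested in every comparison.

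RNA was sequenced from a pair of HEK293 lines, which derive from human embryonic kidney and carry Flp-In T-REx, a system that places a transgene at a docking site and lets tetracycline switch it on. The transgene of one line encodes GFP fused to wild-type TIA1a (WT), and that of the other the fusion with the mutation of Welander distal myopathy, a muscle disease (WDM). TIA1 is an RNA-binding protein of stress granules, the assemblies of untranslated mRNA and protein that form when initiation is blocked. Cells were left untreated, given tetracycline, or given tetracycline and 0.5 mM sodium arsenite for 60 min, and the last condition is called arsenite below although it includes tetracycline. The 10 groups of 3 libraries are the cytosol RNA of WT and of WDM cells in all 3 conditions (18 libraries), and the RNA of the granule fraction of WT and of WDM cells with tetracycline and with arsenite (12 libraries). The granule fraction is labelled as TIA1 stress granules obtained by immunopurification; the antibody and the steps before it are not given in the sources used here. Both granule conditions include tetracycline, so no granule library comes from cells without induction. All groups share the parental line, and each allele is represented by 1 line, so a difference between WT and WDM cells cannot be told apart from a difference between the lines themselves. The labels number the replicates but do not say that they are separate cultures, so p-values measure the spread between these libraries, which may be technical.

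Initiation in human cells starts with eIF2, which carries the initiator tRNA to the small ribosomal subunit as long as eIF2B recharges it with GTP, and with eIF3, eIF1, eIF1A and eIF5, which hold and scan the mRNA. The cap of the mRNA is bound by eIF4F, made of the cap-binding protein eIF4E, the helicase eIF4A and the scaffold eIF4G, while the 4E-BP proteins hold eIF4E away from the scaffold. Arsenite blocks this pathway through phosphorylation of eIF2, and the stalled initiation complexes that then collect in stress granules contain eIF3, eIF4F and the small subunit as proteins. The data here concern the mRNAs of these proteins, not the proteins.

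Several of these mRNAs begin with a C and a run of pyrimidines, the feature that marks mRNAs whose translation follows mTOR and the protein LARP1, and the start sites are shown because granule values are given below for members with and without it. Each window spans 30 bases in RefSeq's promoter table (GRCh38.p14), 15 before the annotated start and 15 from it, read on the transcribed strand. Capitals mark a C at the start followed by 4 bases that are all C or T. The first 6 members have that sequence, and the last 4 do not.
EIF3K: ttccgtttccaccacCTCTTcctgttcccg
EIF3D: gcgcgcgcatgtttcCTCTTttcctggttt
EIF4B: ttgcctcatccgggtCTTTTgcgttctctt
EIF4A2: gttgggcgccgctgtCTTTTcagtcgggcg
EIF2S3: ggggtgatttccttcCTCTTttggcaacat
EIF2S3B: ggggtgactttcttcCTCTTttggcaacat
EIF3I: accttttccggtcttactcacgttgcggcc
EIF4G1: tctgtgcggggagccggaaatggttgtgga
EIF4G3: gctaattctttccagcaatcccacagagta
EIF5B: gcgcactgagaactcacaccatatgtgtcc
The windows lie at chr19:38619173-38619202 (plus strand) for EIF3K, chr22:36529152-36529181 (minus strand) for EIF3D, chr12:53006441-53006470 (plus strand) for EIF4B and chr3:186783562-186783591 (plus strand) for EIF4A2. Those of EIF2S3 and of its single-exon copy EIF2S3B lie at chrX:24054941-24054970 (plus strand) and chr12:10505875-10505904 (plus strand), and within the window the copy has the same sequence from the start on. The windows of EIF3I, EIF4G1, EIF4G3 and EIF5B lie at chr1:32222392-32222421 (plus strand), chr3:184314591-184314620 (plus strand), chr1:21111369-21111398 (minus strand) and chr2:99337374-99337403 (plus strand). Of the 52 members, 44 have an entry in the table, and 10 of these 44 (22.7%) have the pyrimidine start, against 1429 of all 35116 promoters (4.07%). The larger set takes every entry of the promoter table, expressed here or not, so the shares come from unlike sets. The 10 are EIF2A, EIF2D, EIF2S3, EIF2S3B, EIF3D, EIF3F, EIF3K, EIF3M, EIF4A2 and EIF4B. The members were split by the match at the annotated start, on 1 strand. A wider search around the start also found such a run for other members, among them EIF4G3, EIF1, EIF4G2, EIF4H, EIF4EBP2 and EIF5A2. A start in these cells may lie elsewhere: that of EIF4G3 in the table lies inside the gene span used for its counts.

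Library totals ran from 5906167 to 27419145 counts, so that 3 counts, the most that a count of 0 allows, corresponded to 0.109 to 0.508 CPM, the usual depth-scaled count, counting error only. Levels are given as CPM scaled with TMM factors, and differences as log2 fold changes of edgeR's quasi-likelihood test, with calls made at an adjusted p under 0.05. The epithelial markers KRT8, KRT18 and EPCAM reached group means of 161, 131 and 127 CPM in untreated WT cytosol, but CDH1, the epithelial cadherin, only 9.99 CPM against 207 CPM for the N-cadherin gene CDH2. The neurofilament gene NEFL reached 172 CPM there, and its partner NEFM stayed under 1 CPM in every group mean, as did the blood marker PTPRC and the liver marker ALB. TIA1 itself is listed at 0 or at most 0.0751 CPM in every library, with and without tetracycline, so the induction could not be checked with that row. Of 5 nuclear RNA markers (MALAT1, NEAT1, KCNQ1OT1, SNHG14 and MEG3, the last at or near 0), the summed level was 221 to 796 CPM in cytosol and 2204 to 3591 CPM in granule libraries. Libraries of 1 group did not always match: with tetracycline the summed nuclear markers were 518, 227 and 221 CPM in the WT cytosol libraries and 669, 342 and 549.7 CPM in the WDM ones. In bulk RNA, fewer cells with a transcript and less of it per cell cannot be told apart.

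**Figure D1:**
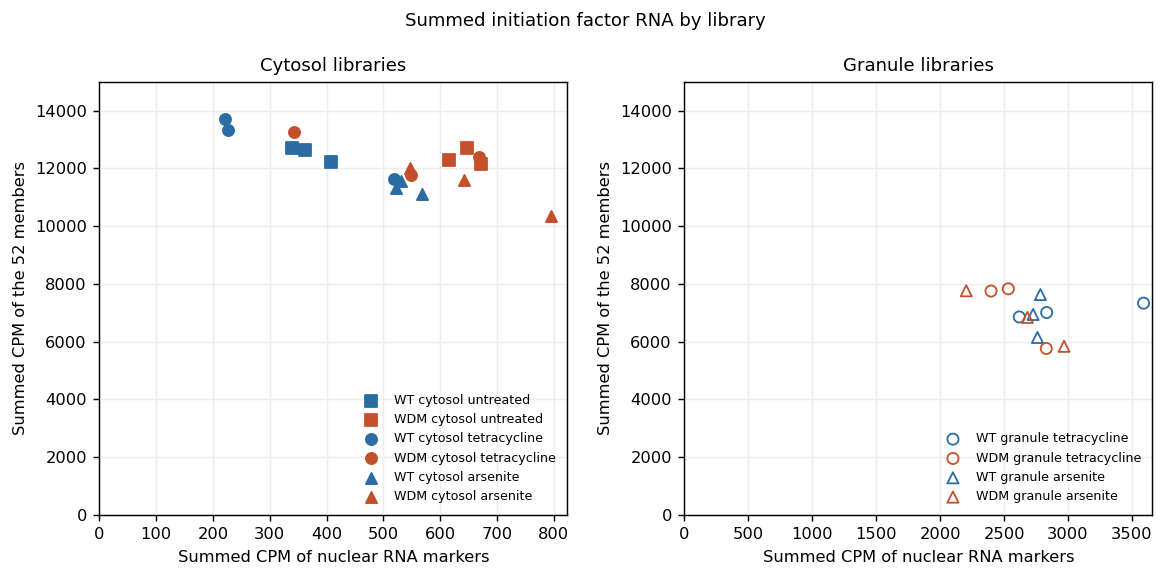
Summed CPM of the 52 initiation factor genes (vertical axis) against the summed CPM of the nuclear RNA markers (horizontal axis), 1 point per library, with line and condition marked by colour and shape. The 18 cytosol libraries lie between 10370 and 13720 CPM for the members and the 12 granule libraries between 5763 and 7830 CPM.

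Of the 6 members that were not tested, 4 lie within other rows on the same strand. EIF3C has 0 counts in all 30 libraries and lies whole in the span of ENSG00000288630 (9116 counts). EIF4A1, the helicase gene most often named for eIF4F, has 0 counts and lies in the spans of SENP3-EIF4A1 (811 counts) and ENSG00000264772 (164 counts). EIF4EBP3 has 1 count and ANKHD1-EIF4EBP3 has 1538, while EIF4E3 has 4 counts and ENSG00000285708 has 2387. Across the table, 145 of 146 protein-coding genes of several exons that lie in another row's span but share under 5% of their exon length with it have 3 counts or fewer (99.3%), against 1135 of 15074 without such an overlap (7.53%). How much exon length the 4 members share with those rows is not given here, so they may not belong to that class. The rows of EIF3C, EIF4A1, EIF4E3 and EIF4EBP3 are not read as showing whether these genes were expressed. EIF4E1B, the oocyte form of the cap-binding protein, has 38 counts in all and at most 5 in a library, and the Y-linked EIF1AY is not described. How the reads were assigned to features is not given in the sources used here, and counts of the other members may include reads from introns.

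Reads of near-identical copies may be divided between rows. EIF3CL, which encodes nearly the same eIF3 subunit as EIF3C, holds 120152 counts, and how much of this comes from EIF3C was not tested. The single-exon copies EIF5AL1 of EIF5A and EIF2S3B of EIF2S3 are reported as uncertain for the same reason.

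Per kilobase of the canonical transcript, the tested members ranged from 596 to 0.847 CPM per kb in untreated WT cytosol. These values depend on the canonical length, and which transcripts the cells used was not tested. EIF3K led with 596 CPM per kb and did not overlap the next, EIF3I (399), whose libraries overlapped those of EIF5A (372), the factor that helps ribosomes past hard-to-join residues. EIF4B, EIF3D, EIF3E and EIF3G followed at 299, 296, 291 and 274 CPM per kb, each overlapping its neighbour. Members of 1 complex were far apart: within eIF3 the range was from 596 for EIF3K to 27.5 for EIF3J, and within eIF4F EIF4A2 (153), EIF4G1 (132), EIF4E (55.3) and EIF4G3 (43.6) differed. The 5 subunits of the exchange factor eIF2B lay at 13.0 to 62.3 CPM per kb and EIF2S1, EIF2S2 and EIF2S3 of its substrate eIF2 at 58.6 to 198, so that EIF2B3 (62.3, libraries from 60.4 to 65.0) lay above EIF2S1 (58.6, from 57.6 to 60.2). Lowest among the tested members were EIF1AD (5.84), EIF5A2 (4.43) and the copies EIF5AL1 (1.03) and EIF2S3B (0.847).

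Between the fractions, most initiation factor mRNAs were lower in granule RNA than in cytosol RNA of the same cells, and a few scaffold and joining-factor mRNAs were higher. With tetracycline 39 of the 46 tested members were lower and 3 higher in WT cells, against 36.2% lower and 39.5% higher of all 18141 genes tested. In WDM cells 39 were lower and 2 higher (all genes: 35.3% and 35.8%). With arsenite the counts were 35 lower and 5 higher in WT cells (all genes: 35.5% and 35%) and 37 lower and 2 higher in WDM cells (all genes: 35.7% and 36.3%). The median log2 fold change over the tested members was -1.23 and -1.03 with tetracycline and -1.21 and -1.41 with arsenite in WT and WDM cells, where that of all genes was between 0.02 and 0.07. In total 34 of the 46 members were lower in all 4 comparisons, against 26.2% of all genes, and 1 was higher in all 4, against 23.9%. Summed over the 52 members, the level was 10370 to 13720 CPM in cytosol libraries and 5763 to 7830 CPM in granule libraries, without overlap. These levels are shares of each library's RNA, and the nuclear markers moved the other way, with 3 of 4 tested markers higher in granule RNA with tetracycline and 2 of 4 with arsenite in both lines. Their part in the result was not tested.

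**Figure D2:**
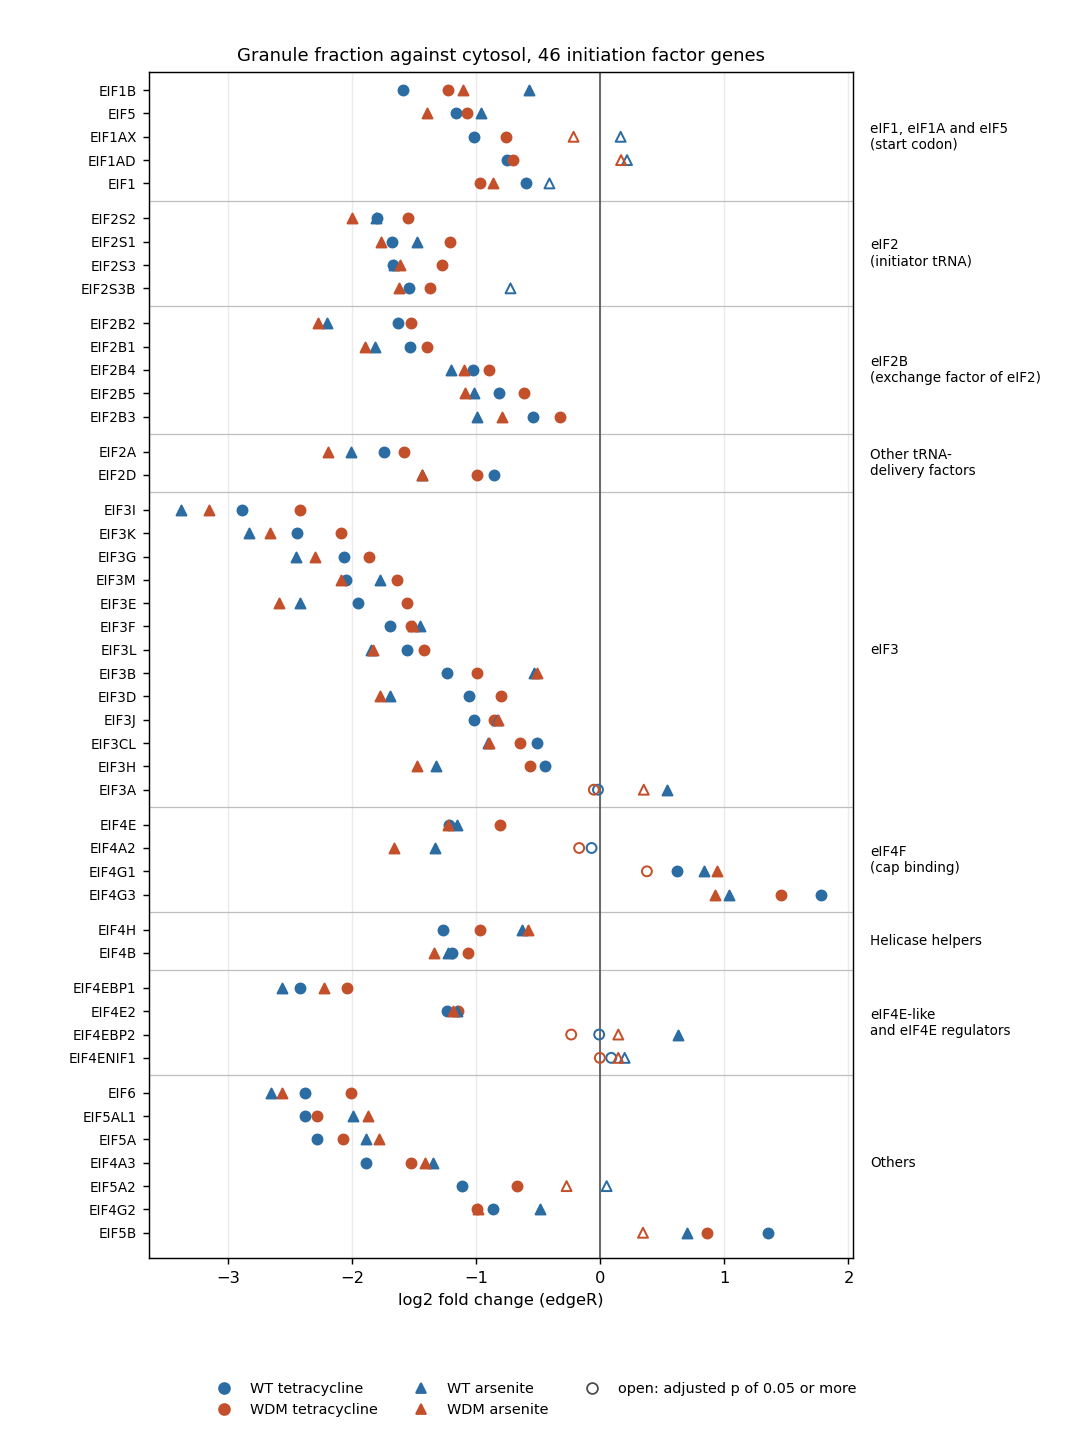
Log2 fold change of granule over cytosol RNA (horizontal axis) for the 46 tested members grouped by complex (rows), in WT (blue) and WDM cells (orange) with tetracycline (circles) and arsenite (triangles); filled symbols passed the test. EIF3I lies furthest to the left, at -3.38 in WT cells with arsenite, and EIF4G3 lies right of 0 in all 4 comparisons.

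The eIF3 subunits made up the largest group, and 12 of the 13 tested were lower in all 4 comparisons, against 26.2% of all genes. EIF3I, a WD-repeat subunit, gave the lowest fold changes of all members. In cytosol of tetracycline-treated cells it stood at 466, 624 and 617 CPM in WT and 463, 583 and 449 CPM in WDM libraries, and in granule RNA at 78.2, 82.6 and 72.5 and 57.9, 113 and 115 CPM. With arsenite the cytosol values were 438, 467 and 474 and 332, 441 and 435 CPM, and the granule values 38.1, 43.4 and 51.6 and 40.9, 50.3 and 48.4 CPM. No granule library came near a cytosol library. The log2 fold changes were -2.88, -2.42, -3.38 and -3.15 (WT and WDM with tetracycline, then WT and WDM with arsenite), with edgeR adjusted p-values of 3.54e-13, 1.37e-11, 2.2e-14 and 5.6e-14. Its start, printed above, has no C at the first base.

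EIF3K, a small subunit at the edge of the complex whose start does have the pyrimidine run, was next to EIF3I in 3 of the 4 comparisons. It fell from 390.1, 514 and 502 CPM in WT cytosol with tetracycline to 86.1, 85.7 and 89.2 CPM in granule RNA, and from 376, 461 and 351 to 66.7, 110.5 and 108 CPM in WDM cells. The groups were far apart in both lines, and the 4 log2 fold changes in the same order were -2.44, -2.09, -2.83 and -2.66, with the largest edgeR adjusted p at 1.44e-11. EIF3G, the RNA-binding subunit next to EIF3I, gave -2.07, -1.87, -2.45 and -2.30, and EIF3E, a PCI-domain subunit, -1.95, -1.55, -2.42 and -2.59. EIF3H, an MPN-domain subunit, was the least reduced of these with tetracycline (-0.45 and -0.56) and further reduced with arsenite (-1.32 and -1.48).

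EIF3A, the largest subunit and scaffold of eIF3, was the exception in the complex. Its cytosol values with tetracycline were 561, 528 and 566 CPM in WT and 548, 484 and 496 CPM in WDM libraries, and its granule values 582, 524 and 543 and 368, 559 and 582 CPM, so that the groups overlapped (log2 fold changes -0.02 and -0.05, edgeR adjusted p = 0.926 and 0.791). With arsenite it stood at 509, 449 and 462 CPM in WT cytosol and at 803, 533 and 730.3 CPM in WT granule RNA (log2 fold change 0.54, SE 0.17, edgeR adjusted p = 0.00516). In WDM cells the values were 484, 478 and 462 and 513, 712 and 641 CPM, a difference that did not pass the test (0.35, edgeR adjusted p = 0.0587).

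Within eIF4F the members went apart. Of all genes, 23.9% were higher in granule RNA in all 4 comparisons. Among the tested members only the scaffold gene EIF4G3 (ENSG00000075151, chr1:20806292-21176888, minus strand) was. With tetracycline it measured 328, 205 and 208 CPM in WT cytosol and 784, 884 and 899 CPM in WT granule RNA, and 319, 192 and 255 and 852, 632 and 664 CPM in WDM cells. With arsenite the WT values were 386, 374 and 359 and 734, 754 and 818 CPM, and the WDM values 417, 394 and 315 and 723, 806 and 668 CPM. Every granule library was above every cytosol library. The log2 fold changes were 1.78, 1.45, 1.04 and 0.92, with edgeR adjusted p-values of 1.4e-09, 7.12e-08, 1.32e-05 and 6.39e-05, and without WT cytosol replicate 1, whose EIF4G3 and nuclear markers were both high, the first was 2.00.

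EIF4G1, the main scaffold, measured 713, 698 and 852 CPM in WT cytosol and 1273, 1293 and 945 CPM in WT granule RNA with tetracycline (log2 fold change 0.62, SE 0.20, edgeR adjusted p = 0.00544). In WDM cells the values were 735, 691 and 620.4 and 652, 1047 and 1018 CPM, with granule replicate 1 below the other 2, and the difference did not pass the test (0.38, edgeR adjusted p = 0.0857). With arsenite granule RNA held 1156, 1095 and 1617 CPM in WT and 1078, 1722 and 1433 CPM in WDM libraries, against 736, 678 and 744 and 681, 828 and 631 CPM in cytosol. Both differences passed, at 0.84 and 0.94 (edgeR adjusted p = 0.000414 and 0.000109). The related EIF4G2, which lacks the site for eIF4E and drives cap-independent initiation, was lower in granule RNA in all 4 (-0.86, -0.99, -0.48 and -0.99), and the WT arsenite call was lost in 3 of 12 alternatives.

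EIF4E, the cap-binding protein itself, was lower in granule RNA throughout. It measured 128, 167 and 154 CPM in WT cytosol and 65.1, 62.0 and 67.4 CPM in WT granule RNA with tetracycline, and 127, 153 and 132 and 75.4, 84.3 and 81.0 CPM in WDM cells, with no overlap. The log2 fold changes were -1.22, -0.81, -1.15 and -1.23, the second with an edgeR adjusted p of 9.76e-07. Its relative EIF4E2, a cap-binding protein that represses, was lower in all 4 as well (-1.23, -1.15, -1.15 and -1.19).

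**Figure D3:**
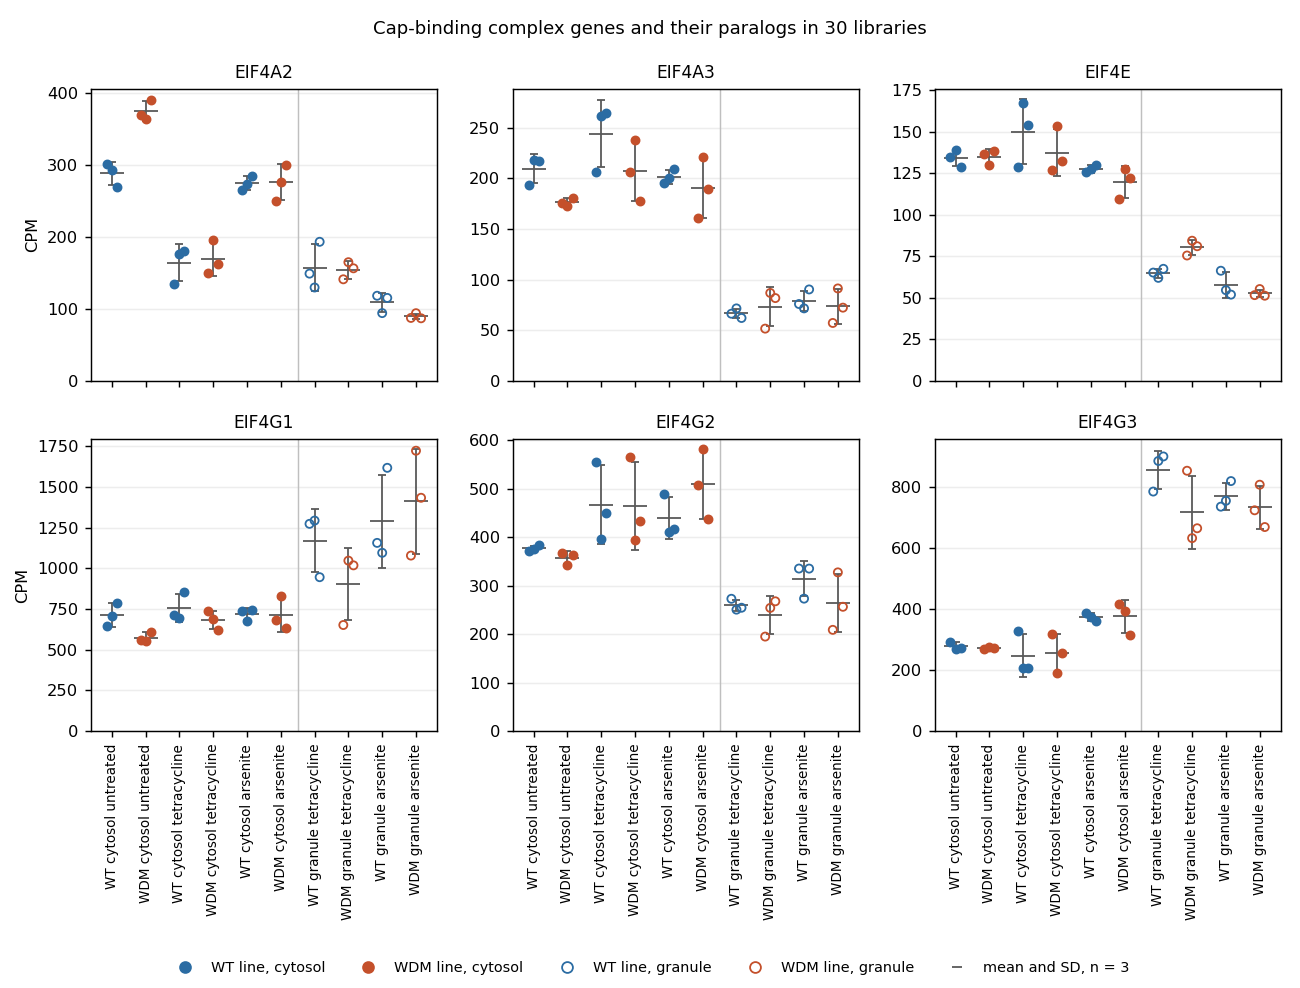
CPM (vertical axis, from 0) of 6 cap-complex genes and paralogs in the 30 libraries, by group (horizontal axis), 1 point per library with mean and SD of 3. EIF4G3 lies higher in granule than in cytosol RNA throughout, EIF4G1 does so except in WDM cells with tetracycline, where the groups overlap, EIF4E, EIF4G2 and EIF4A3 lie lower, and EIF4A2 is at 135 to 196 CPM in cytosol with tetracycline against 251 to 391 CPM in the other cytosol groups.

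Among the regulators of eIF4E, the 4E-BP genes differed. EIF4EBP1 went from 118, 129 and 139 CPM in WT cytosol to 22.2, 26.3 and 23.9 CPM in WT granule RNA with tetracycline, and from 178, 214 and 204 to 46.2, 49.0 and 53.1 CPM in WDM cells. The groups did not overlap, and the log2 fold changes were -2.42, -2.04, -2.56 and -2.22 with a largest edgeR adjusted p of 2.8e-12. EIF4EBP2 stood at 91.5, 44.5 and 45.7 CPM in WT cytosol and 67.7, 63.0 and 53.1 CPM in WT granule RNA with tetracycline, overlapping groups (-0.01). With arsenite it was higher in WT granule RNA, 123, 103 and 109 against 82.5, 72.5 and 62.1 CPM (log2 fold change 0.62, SE 0.22, edgeR adjusted p = 0.0156), a call lost without WT cytosol replicate 3 or without WT granule replicate 1. EIF4ENIF1, the transporter of eIF4E found in P-bodies, was the only tested member not called in any of the 4 comparisons, with a smallest edgeR adjusted p of 0.161.

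EIF5B, the GTPase that joins the ribosomal subunits, was higher in granule RNA in 3 of the 4 comparisons. In cytosol with tetracycline its values spread widely, at 62.7, 27.7 and 29.8 CPM in WT and 62.2, 22.7 and 41.0 CPM in WDM libraries, with replicate 1 the highest of each. Granule RNA held 113, 95.2 and 103 and 70.1, 78.6 and 84.3 CPM, above every cytosol library of the line. The log2 fold changes were 1.35 in WT (edgeR adjusted p = 0.000129) and 0.86 in WDM cells (edgeR adjusted p = 0.00789). Without replicate 1 of the cytosol they were 1.80 and 1.24, and without WDM cytosol replicate 2 the WDM value was 0.55 and did not pass (edgeR adjusted p = 0.0539). With arsenite the values were 0.70 in WT cells (edgeR adjusted p = 0.0254), lost in 3 of the fits without 1 library, and 0.34 in WDM cells (edgeR adjusted p = 0.252).

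The genes grouped under scanning and start codon choice were all lower in granule RNA with tetracycline, 5 of 5 tested in each line. With arsenite 2 (WT) and 3 (WDM) of the 5 were lower. Of all genes, 36.2% (WT) and 35.3% (WDM) were lower with tetracycline, and 35.5% and 35.7% with arsenite. The 5 include EIF1AD, whose protein has an eIF1A-like domain and whose part in scanning was not tested. EIF5, which makes eIF2 hydrolyse its GTP at the start codon, was lower in all 4 (-1.16, -1.07, -0.96 and -1.40). So was EIF1B (-1.59, -1.23, -0.58 and -1.11), its WT arsenite call being lost in 2 of 12 alternatives. EIF1AX measured 271, 305 and 327 CPM in WT cytosol and 196, 117 and 139 CPM in WT granule RNA with tetracycline, without overlap (log2 fold change -1.01, SE 0.18, edgeR adjusted p = 8.63e-06). With arsenite the values were 244, 243 and 255 and 344, 219 and 270.4 CPM, which overlapped (0.16, edgeR adjusted p = 0.404). EIF1AD was at -0.75 and -0.70 with tetracycline and 0.22 and 0.17 with arsenite, the last pair not called. EIF1 was spread in cytosol with tetracycline, at 164, 82.7 and 98.3 CPM in WT libraries against 90.5, 66.2 and 74.7 CPM in granule RNA (-0.60, edgeR adjusted p = 0.0175), and without WT cytosol replicate 1 it did not pass (-0.29, edgeR adjusted p = 0.193).

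The tRNA-handling complexes were lower as a whole. The 3 genes of eIF2 subunits and the 5 of eIF2B passed as lower in all 4 comparisons, with fold changes from -2.00 (EIF2S2, WDM arsenite) to -1.21 (EIF2S1, WDM tetracycline) for eIF2, and from -2.27 (EIF2B2, WDM arsenite) to -0.32 (EIF2B3, WDM tetracycline) for eIF2B. EIF2A and EIF2D, which can deliver tRNA without eIF2, and the helicase helpers EIF4B and EIF4H were also lower in all 4. Of all genes, 26.2% were lower in all 4. EIF5A, with 492, 512 and 563 CPM in WT cytosol and 128, 98.3 and 99.8 CPM in WT granule RNA with tetracycline, gave -2.28, -2.07, -1.89 and -1.78, and its paralog EIF5A2 -1.11, -0.67, 0.05 and -0.27, the last pair not called. EIF6, which keeps the large subunit from joining early, gave -2.38, -2.00, -2.65 and -2.57. EIF4A3, a helicase relative that serves in the exon junction complex, gave -1.89, -1.53, -1.35 and -1.41.

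Across the 46 tested members, longer canonical transcripts went with higher granule fold changes: Spearman's rho was 0.419 and 0.413 with tetracycline and 0.505 and 0.468 with arsenite in WT and WDM cells. Coding length gave 0.425, 0.389, 0.240 and 0.254, and the length of the gene span 0.268, 0.298, 0.135 and 0.186. These are descriptions, since the members share the same libraries, and no rho over all genes is given here. The shortest transcripts were those of EIF3K (772 bases), EIF4EBP1 (827) and EIF4E2 (967), all lower in granule RNA. Among the longest, EIF4EBP2 (7491), EIF3A (6659), EIF4G3 (6397), EIF5B (5741) and EIF4G1 (5405) were the 5 members higher in at least 1 comparison, but EIF3F (6920) and EIF5 (5710) were lower in all 4. EIF5A2 (5534), also among the longest, was lower in both lines with tetracycline and not called with arsenite. By start, the 10 members with the pyrimidine run had a median log2 fold change of -1.61 and -1.32 with tetracycline and -1.56 and -1.64 with arsenite in WT and WDM cells, against -1.14, -0.97, -0.90 and -1.04 for the 28 other tested members in the promoter table. The ranges overlapped: EIF3I, without the run, lay below all 10, and EIF4A2, with it, was near 0 with tetracycline. Some of the 28, such as EIF4G3 and EIF4H, have such a run near the start but not at it.

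Arsenite changed the members within the granule fraction, with 6 eIF3 genes and 2 eIF2B genes lower in both lines and EIF1AD and EIF4EBP2 higher in both. In WT cells 7 of 46 were higher and 10 lower (all 18366 genes tested: 16.5% and 14.1%), and in WDM cells 4 were higher and 22 lower (all genes: 18.7% and 17.7%). The 10 lower in both lines were EIF2B2, EIF2B3, EIF2D, EIF3D, EIF3E, EIF3H, EIF3I, EIF3K, EIF3L and EIF4A2. Of all genes 9.42% were lower in both lines and 10.4% higher in both, against 10 and 2 of the 46 members. The median over tested members was -0.08 in WT and -0.34 in WDM cells, against -0.03 and 0.01 for all genes. Summed mitochondrial RNA markers, 1114 to 4175 CPM in granule RNA with tetracycline and 531 to 1500 CPM with arsenite, changed beside these results, while the nuclear markers ranged over 2398 to 3591 and 2204 to 2969 CPM. The part of either in the result was not tested.

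**Figure D4:**
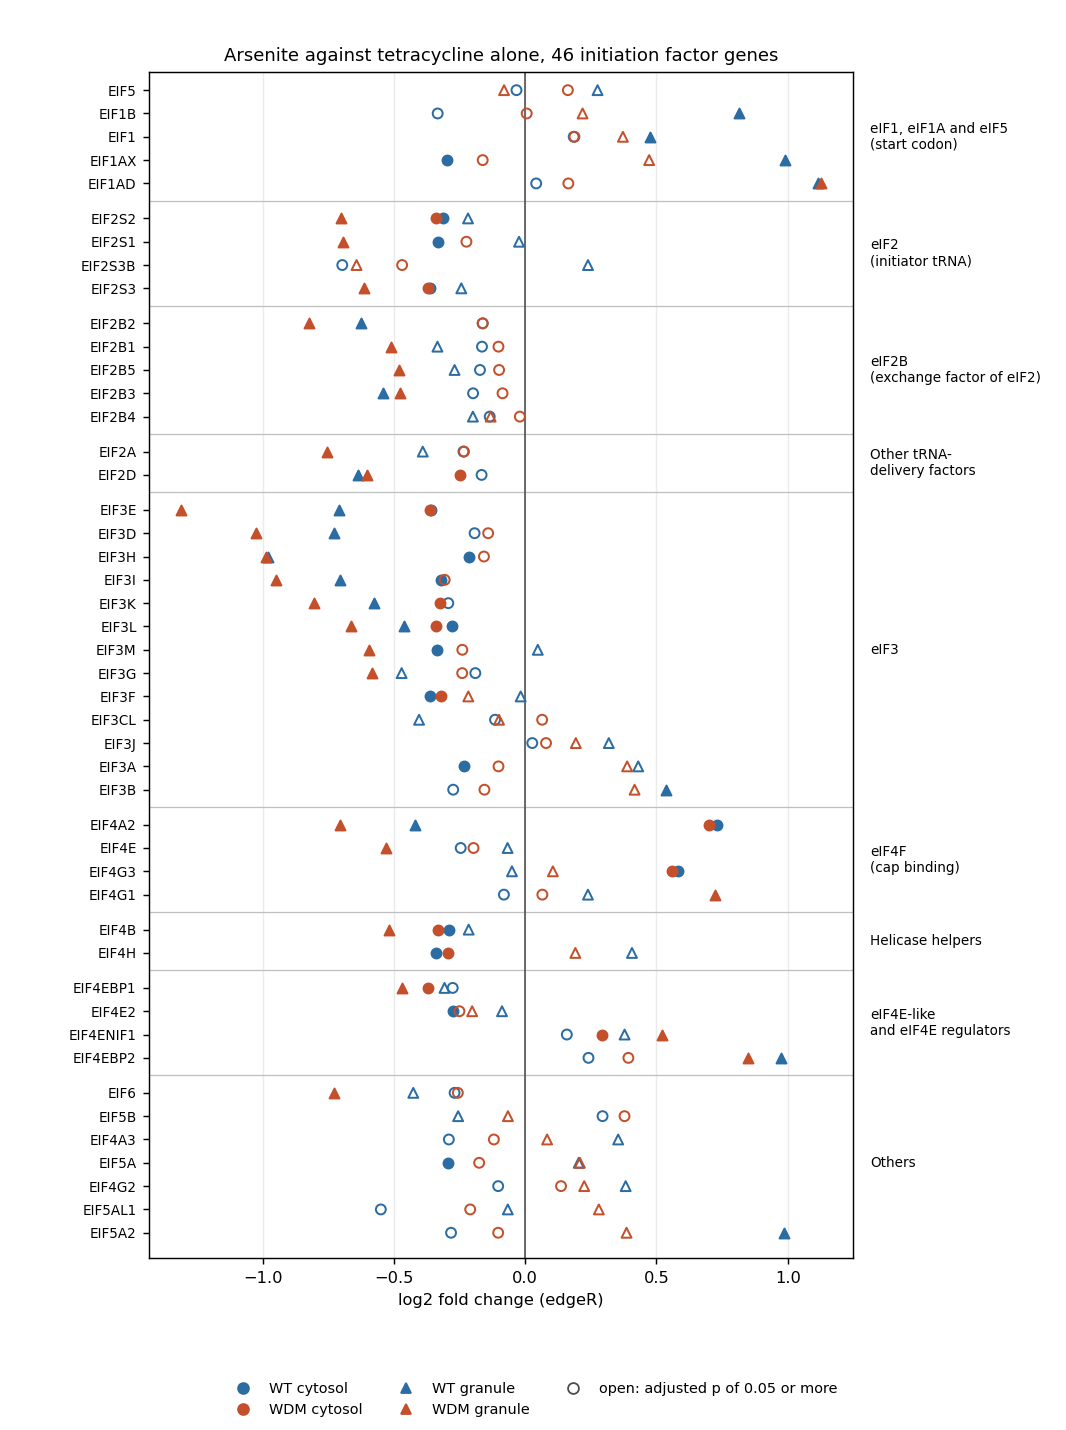
Log2 fold change of arsenite over tetracycline alone (horizontal axis) for the 46 tested members grouped by complex (rows), in cytosol (circles) and granule RNA (triangles) of WT (blue) and WDM cells (orange); filled symbols passed the test. EIF4A2 lies right of 0 in cytosol (0.73 and 0.70) and left of 0 in granule RNA (-0.42 and -0.71).

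EIF3E measured 144, 118 and 191 CPM in WT and 162, 205 and 213 CPM in WDM granule RNA with tetracycline, and with arsenite 98.1, 81.1 and 78.2 CPM in WT and 72.6, 78.9 and 70.0 CPM in WDM libraries. All arsenite libraries were below all tetracycline libraries of their line, with log2 fold changes of -0.71 (edgeR adjusted p = 0.0023) and -1.31 (edgeR adjusted p = 2.34e-06). EIF3H went from 108, 113 and 157 to 61.8, 61.5 and 55.1 CPM in WT cells and from 107, 110.5 and 119 to 55.3, 60.0 and 45.9 CPM in WDM cells, again without overlap (-0.98 and -0.99, edgeR adjusted p = 6.14e-05 and 2.76e-05). EIF3D, a subunit that can itself bind caps, went from 242, 269 and 236 to 122, 144 and 154 CPM in WT cells (log2 fold change -0.73, SE 0.18, edgeR adjusted p = 0.00305). In WDM cells it went from 164, 308 and 295 to 111, 124 and 121 CPM, tetracycline replicate 1 lying well under the other 2 (log2 fold change -1.03, SE 0.18, edgeR adjusted p = 8.25e-05). EIF3I also fell, by 0.71 and 0.95 on the log2 scale.

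Not every eIF3 gene fell. EIF3B, a core subunit, rose in WT granule RNA by 0.54 on the log2 scale (edgeR adjusted p = 0.0203), and its WDM value of 0.42 did not pass. EIF3A was at 0.43 and 0.39, neither past the test (edgeR adjusted p = 0.089 and 0.115). The exchange factor genes EIF2B2 (-0.63 and -0.82) and EIF2B3 (-0.54 and -0.48) fell in both lines. The eIF2 genes EIF2S1, EIF2S2 and EIF2S3 passed as lower in WDM cells (-0.69, -0.70 and -0.61), while their WT values of -0.02, -0.22 and -0.24 did not pass.

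EIF1AD, which encodes a protein with an eIF1A-like domain, rose from 10.4, 12.9 and 10.6 to 21.5, 21.1 and 25.6 CPM in WT granule RNA, and from 8.68, 12.9 and 14.2 to 17.5, 30.0 and 26.6 CPM in WDM granule RNA. The groups did not overlap in either line, and the log2 fold changes were 1.11 and 1.13 (edgeR adjusted p = 0.000285 and 0.000131). EIF4EBP2 rose from 67.7, 63.0 and 53.1 to 123, 103 and 109 CPM in WT cells and from 76.3, 74.4 and 76.6 to 113, 145 and 129.5 CPM in WDM cells, also without overlap (0.97 and 0.85, edgeR adjusted p = 6.24e-05 and 0.000139). EIF1AX, the scanning factor eIF1A, went from 196, 117 and 139 to 344, 219 and 270.4 CPM in WT cells (log2 fold change 0.99, SE 0.20, edgeR adjusted p = 0.000655), and from 207, 249 and 266 to 252, 380.5 and 316 CPM in WDM cells, where it did not pass (0.47, edgeR adjusted p = 0.0641). EIF5A2 and EIF1B rose in WT cells, by 0.99 and 0.82, the call of EIF1B being lost in 3 of 12 alternatives, and EIF1, the scanning partner of eIF1A, by 0.48 with a call that 5 of 12 alternatives did not keep. In WDM cells EIF4G1 and EIF4ENIF1 rose, by 0.72 and 0.52, but without tetracycline replicate 1 EIF4G1 was at 0.55 (edgeR adjusted p = 0.051), and without tetracycline replicate 2 EIF4ENIF1 was at 0.48 (edgeR adjusted p = 0.061).

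A difference between the lines in the arsenite effect on granule RNA was called for 0 of 46 members, against 0% of all 18366 genes, and 6 members had an unadjusted p under 0.05 in edgeR. Those were EIF2S1, EIF2S2, EIF3E, EIF3M, EIF4E and EIF5A2, all with a lower change in WDM cells, by 0.67 for EIF2S1 on the log2 scale (SE 0.24, edgeR adjusted p = 0.277). DESeq2 called none either. The share of all genes under that unadjusted p is not given here, so no line difference is read from the 6.

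The arsenite change in granule RNA was also taken relative to the change in cytosol RNA of the same line, that is, as a change of the granule over cytosol fold change. In WT cells 5 of 46 members passed upward and 7 downward, and in WDM cells 1 upward and 8 downward, where 31.4% and 24.2% of all genes passed in either direction. The median was 0.04 in WT and -0.30 in WDM cells, against -0.21 and -0.17 for all genes. EIF2B2, EIF2B3, EIF3D, EIF3H and EIF4A2 passed downward in both lines and EIF1AD upward in both, but the WT call of EIF3D was lost in 13 of 18 alternatives. EIF4A2 had the lowest value in each, -1.26 in WT (SE 0.21, edgeR adjusted p = 6.02e-05) and -1.49 in WDM cells (SE 0.21, edgeR adjusted p = 3.14e-05), and both calls held in all 18 alternatives. The count in WDM cells rose to 16 without WDM granule tetracycline replicate 1, the library with the lowest summed level of the members.

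In cytosol RNA the arsenite changes were smaller, and most of the members called were lower. In WT cells 2 of 46 were higher and 15 lower (all 16670 genes tested: 13.7% and 15.4%), and in WDM cells 3 were higher and 10 lower (all genes: 14.1% and 14.8%). EIF2S2, EIF2S3, EIF3E, EIF3F, EIF3L, EIF4B and EIF4H were lower in both lines, by at most 0.37 on the log2 scale. That is 7 of 46 members, against 10.5% of all genes lower in both lines. Higher in both were 2 members, against 9.67% of all genes. The calls of EIF2S3 and EIF3E were lost in 5 of 12 alternatives in WT and 3 of 12 in WDM cells, that of EIF4H in 6 of 12 in WT cells and that of EIF2S2 in 3 of 12 in WDM cells. The count rests on single libraries: in WT cells it was 35 without tetracycline replicate 1 and 2 without tetracycline replicate 3, and in WDM cells 1 without tetracycline replicate 2. Scaling by library size alone, which moved the median of all genes in WT cells by 0.133 on the log2 scale, gave 3 higher and 1 lower in WT cells, and 4 higher and 7 lower in WDM cells. Summed nuclear markers were 221 to 518 CPM with tetracycline and 523 to 568 CPM with arsenite in WT cytosol, and 342 to 669 and 547 to 796 CPM in WDM cytosol. Their part in the result was not tested.

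EIF3F, an MPN-domain subunit of eIF3, measured 193, 226 and 219 CPM in WT cytosol with tetracycline and 167, 164 and 169.9 CPM with arsenite, without overlap (log2 fold change -0.36, SE 0.09, edgeR adjusted p = 0.00618), and this call held in all 12 alternatives. In WDM cells it went from 194, 223 and 184 to 141, 166 and 172 CPM, again without overlap (log2 fold change -0.32, SE 0.09, edgeR adjusted p = 0.0121). EIF3E went from 476, 647 and 617 to 462, 450.3 and 457 CPM in WT cells, where tetracycline replicate 1 lay close to the arsenite libraries, and the call (-0.36, edgeR adjusted p = 0.0122) was lost in 5 of 12 alternatives, among them the fits without tetracycline replicate 2 (-0.27) or 3 (-0.31). EIF4G3, the scaffold gene described above, was higher in both lines, at 0.58 and 0.56 (edgeR adjusted p = 0.0195 and 0.0235), but each call was lost in 6 of 12 alternatives: without tetracycline replicate 2 the values were 0.47 in WT and 0.39 in WDM cells, and without replicate 1 0.84 and 0.74. A difference between the lines in the cytosol arsenite effect was called by edgeR for 0 of 46 members, with 0 at an unadjusted p under 0.05, and for 0% of all genes. DESeq2 called 0 members as well.

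EIF4A2, the helicase paralog whose row holds reads where that of EIF4A1 does not (ENSG00000156976, chr3:186783205-186789897, plus strand), was the member that changed most in cytosol, in opposite directions with tetracycline and with arsenite. Untreated cytosol held 302, 294 and 270.1 CPM in WT and 369, 365 and 391 CPM in WDM libraries. With tetracycline it held 135, 177 and 181 CPM in WT and 151, 196 and 162 CPM in WDM libraries, below every untreated library. With arsenite added it held 266, 273 and 286 CPM in WT and 251, 277 and 301 CPM in WDM libraries, above every library with tetracycline alone. The tetracycline change was -0.82 in WT (SE 0.11, edgeR adjusted p = 0.000581) and -1.15 in WDM cells (SE 0.11, edgeR adjusted p = 4.82e-06). The arsenite change was 0.73 (SE 0.11, edgeR adjusted p = 0.0001) and 0.70 (SE 0.11, edgeR adjusted p = 0.000161). All 4 calls held in every alternative. Both contrasts use the same tetracycline libraries.

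Granule RNA did not follow the cytosol for EIF4A2. It held 149, 129.9 and 194 CPM in WT and 141, 165 and 157 CPM in WDM libraries with tetracycline, overlapping the cytosol values, and with arsenite 118, 94.3 and 115 CPM in WT and 87.5, 94.1 and 87.0 CPM in WDM libraries, below every granule and cytosol library with tetracycline. Granule over cytosol was -0.07 and -0.17 with tetracycline (edgeR adjusted p = 0.671 and 0.298) and -1.33 and -1.66 with arsenite (edgeR adjusted p = 4.27e-09 and 6.03e-11). Within granule RNA the arsenite change was -0.71 in WDM cells (edgeR adjusted p = 0.00102) and -0.42 in WT cells (edgeR adjusted p = 0.0428), the WT call being lost in 8 of 12 alternatives. Small nucleolar RNA genes lie within its gene span, and 10.5% of its exon length is shared with SNORA81, a row with 0 counts.

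Tetracycline changed few other members. In WT cytosol 1 of 46 was higher and 1 lower (all genes: 2.93% and 2.39%), and in WDM cytosol 0 were higher and 1 lower (all genes: 3.07% and 3.23%), the lower one being EIF4A2 in both. The higher one was EIF1B, the paralog of EIF1, at 10.1, 9.52 and 8.79 CPM untreated and 12.9, 11.6 and 14.8 CPM with tetracycline in WT cells, groups that did not overlap (log2 fold change 0.46, SE 0.13, edgeR adjusted p = 0.0458), a call lost in 8 of 12 alternatives. In WDM cells its value was 0.15 (edgeR adjusted p = 0.553). A difference between the lines was called by edgeR for 0 of 46 members against 0.018% of all genes, and DESeq2 called 0. EIF4A2, the 1 member with an unadjusted edgeR p under 0.05 (-0.33), did not pass after adjustment. How many of all genes fell under that p is not given here.

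Between the lines, 6 members were called in the same direction in all 3 cytosol conditions. EIF1AX, EIF2S3 and EIF4EBP1 were higher in WDM cells, and EIF3CL, EIF5A2 and EIF6 lower. Untreated, 4 of 46 members were higher and 4 lower (all genes: 4.19% and 5.6%), with tetracycline 3 and 5 (all genes: 5.8% and 6.84%), and with arsenite 3 and 4 (all genes: 4.98% and 5.37%), shares near those of all genes. Called in all 3 conditions were 3 of 46 members in each direction, against 2.13% of all genes higher and 2.96% lower. Of these calls, that of EIF5A2 with arsenite was lost in 3 of 12 alternatives, that of EIF6 untreated in 2 and that of EIF3CL with arsenite in 1.

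**Figure D5:**
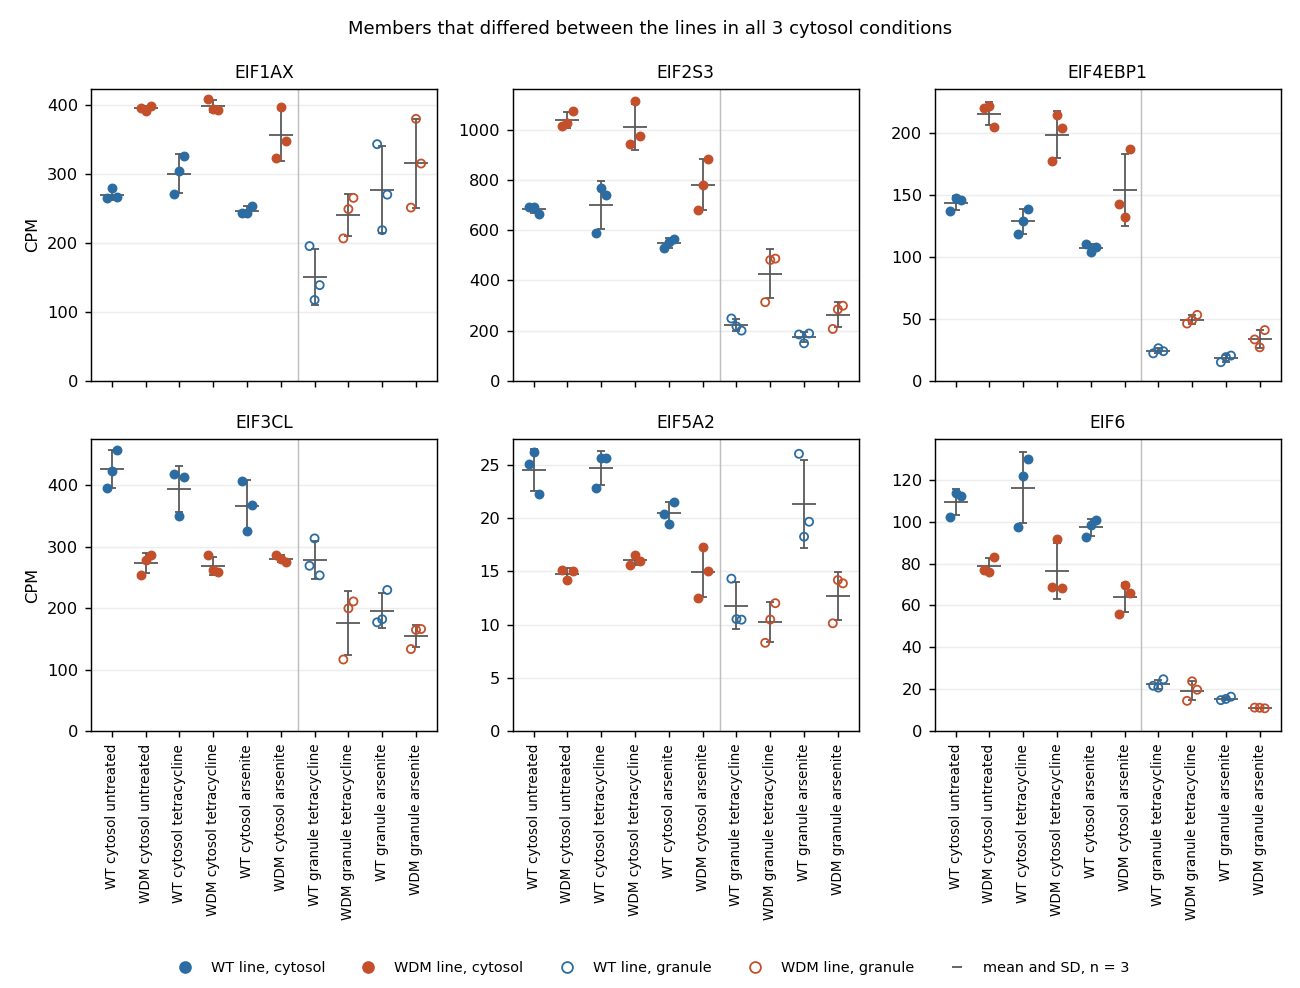
CPM (vertical axis, from 0) of the 6 members called between the lines in all 3 cytosol conditions, by group (horizontal axis), 1 point per library with mean and SD of 3, WT in blue and WDM in orange, cytosol filled and granule open. In untreated cytosol the 3 WDM libraries lie above the WT libraries for EIF1AX, EIF2S3 and EIF4EBP1 and below them for EIF3CL, EIF5A2 and EIF6.

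EIF2S3, the X-linked gene of the eIF2 subunit that binds the tRNA and GTP, measured 695, 694 and 666 CPM in untreated WT and 1016, 1028 and 1075 CPM in untreated WDM cytosol, far apart (log2 fold change 0.60, SE 0.10, edgeR adjusted p = 0.000499). With tetracycline and arsenite the differences were 0.53 and 0.53, and in granule RNA with tetracycline 0.94 (edgeR adjusted p = 0.00144). Its partner EIF2S2 went the other way, at -0.40 with tetracycline, a call lost in 5 of 12 alternatives, and -0.43 with arsenite (edgeR adjusted p = 0.0058). EIF1AX, also X-linked, held 266, 279 and 266 CPM in WT and 396, 392 and 399 CPM in WDM libraries untreated (log2 fold change 0.55, SE 0.08, edgeR adjusted p = 9.71e-05). Of the 15 tested genes within 2 Mb, 8 were higher in WDM cells for EIF1AX and 6 for EIF2S3, with medians of 0.02 and -0.06.

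EIF4EBP1, the repressor of eIF4E, held 137, 148 and 145 CPM in WT and 219.8, 222 and 204 CPM in WDM cytosol untreated (log2 fold change 0.59, SE 0.10, edgeR adjusted p = 0.000615), and 22.2, 26.3 and 23.9 and 46.2, 49.0 and 53.1 CPM in granule RNA with tetracycline (log2 fold change 1.03, SE 0.18, edgeR adjusted p = 0.000277). The groups did not overlap in either fraction, and the call held in every alternative of all 5 line comparisons. Of the 28 tested genes within 2 Mb, 24 were higher in WDM cells, with a median of 0.18, and 3 were called higher. EIF3CL held 396, 424 and 458 CPM in WT and 255, 278 and 287 CPM in WDM cytosol untreated, without overlap (log2 fold change -0.64, SE 0.09, edgeR adjusted p = 6.36e-05). Around it 53 of 57 tested genes within 2 Mb were also lower in WDM cells, with a median of -0.49, and 25 of them were called. For EIF5A2 (-0.73, edgeR adjusted p = 0.000163) it was 16 of 18, with a median of -0.44, and for EIF6 (-0.47, edgeR adjusted p = 0.00984) 42 of 57, with a median of -0.22. EIF2B4, lower untreated (-0.57) and with tetracycline (-0.39), had 47 of 52 neighbours lower, with a median of -0.22. Around EIF2S2, lower with tetracycline and with arsenite, 39 of 56 were lower untreated, with a median of -0.14, and 14 were called lower. EIF2S2 and EIF6 start at 34.09 and 35.28 Mb of chromosome 20, so their neighbourhoods overlap. The part of these neighbourhoods in the members' differences was not tested.

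In granule RNA 3 of 46 members were higher in WDM cells and 1 lower with tetracycline (all genes: 2.6% and 2.95%), and 1 was higher and 2 lower with arsenite (all genes: 4.11% and 3.84%). With tetracycline EIF4EBP1, EIF2S3 and EIF1AX were the higher ones, the last at 0.67 with a call lost in 7 of 12 alternatives. EIF3CL was the lower one with tetracycline (-0.67, edgeR adjusted p = 0.0246; -0.46 and not called without WDM replicate 1), and EIF2S2 (-0.63, edgeR adjusted p = 0.0115) and EIF5A2 (-0.77, edgeR adjusted p = 0.0148) were lower with arsenite, calls lost in 3 and 2 of 12 alternatives. The WT and WDM granule over cytosol fold changes themselves were called as different for 0 of 46 members by edgeR with either treatment, against 0.00551% of all genes in each. Unadjusted, 2 members (EIF2S1 and EIF4E) had a p under 0.05 with tetracycline and 0 with arsenite, and DESeq2 called 0 in both. No share of all genes at that unadjusted p is given here, so the 2 are not read as a line difference.

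Other genes of the pathway were also both higher and lower in granule RNA. Of 18 partners of initiation, 3 were higher and 11 lower in granule RNA with tetracycline in each line, and 4 higher and 8 (WT) or 9 (WDM) lower with arsenite. Beside these counts and those below, 35.3% to 36.2% of all genes were lower and 35% to 39.5% higher in the 4 comparisons. RPTOR, the mTOR complex subunit that recruits the 4E-BP proteins, was higher in all 4 (log2 fold changes 2.04, 1.53, 1.31 and 1.41), and so were MTOR (0.68, 0.36, 0.72 and 0.60) and LARP1 (1.11, 0.79, 1.72 and 1.63), the protein that binds mRNAs with a pyrimidine start. Of 8 tested elongation and termination genes, 6 were lower in each comparison, among them EEF1B2 (-3.05, -2.61, -3.61 and -3.74) and EEF1A1 (-1.78, -1.54, -2.59 and -2.64). Of 9 genes of the eIF2 kinases and their counterparts, 2 to 3 were higher and 4 to 5 lower, with ATF4, the transcription factor made when eIF2 is phosphorylated, at -2.22, -1.96, -2.08 and -1.98.

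With arsenite in cytosol, 2 of those 9 genes were higher and 2 lower in WT cells (all genes: 13.7% and 15.4%), and 1 higher and 2 lower in WDM cells (all genes: 14.1% and 14.8%). PPP1R15A, the stress-induced subunit of the phosphatase that restores eIF2, rose in both lines, by 0.74 and 0.78 (edgeR adjusted p = 0.00017 and 0.000123). Of the 4 kinases, EIF2AK1, the kinase known to answer arsenite, had values of -0.01 and 0.03, neither past the test (edgeR adjusted p = 0.937 and 0.866). In granule RNA the amino acid sensor EIF2AK4 rose with arsenite in both lines, by 0.77 and 0.48 (edgeR adjusted p = 0.000468 and 0.0134).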

How the data were processed

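The authors deposited 1 table of raw read counts per gene for 30 libraries. Per the labels' protocols, libraries were TruSeq stranded total RNA after Ribo-Zero Gold. Per the submitters' processing notes, Trimmomatic, STAR, Picard and featureCounts were used with build GRCh38; versions, and how reads were assigned to features, are not given in the sources used here. Gene positions came from GENCODE release 44, in which 60463 IDs were found.

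Counts were tested with edgeR 4.0.16 (R 4.3.3; quasi-likelihood, robust, TMM factors, filterByExpr with a minimum count of 10 and total of 15) and adjusted after Benjamini-Hochberg over all genes tested, in 3 fits: cytosol (18 libraries, 16670 genes), granule (12 libraries, 18366 genes), and both fractions of treated cells (24 libraries, 18141 genes). There were 22 comparisons, 7 of them differences of differences. The code was tested on simulated data. The settings varied were the scaling (RLE, or only library totals), the filter (none), a replicate block, the tool (DESeq2 1.42.0), fits of only the groups compared, and each library left out in turn. Named were up to 4 higher and 4 lower called members per comparison with at least 5 CPM in the higher group, by size of change, and the paralog families; others complete a complex. Members and lists were chosen with earlier results of these data known. Replicate numbers paired the libraries, by correlated deviations over 0.1 in every pair, only for granule against cytosol in WDM cells with arsenite (0.350, 0.563 and 0.306), where the block left the count at 39.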

Additional observations from a re-analysis of the deposited data

Results flagged for a closer look

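The arsenite change of the granule over cytosol fold change passed edgeR's test, the test of whether the change differed between granule and cytosol RNA, for 12 of 46 members in WT and 9 of 46 in WDM cells. Of all genes 31.4% and 24.2% passed, so the members passed no more often than genes at large. In WT cells the difference (granule change minus cytosol change, log2) was 0.96 for EIF1AD, 1.18 for EIF1AX, 1.02 for EIF1B, 0.70 for EIF3B and 1.16 for EIF5A2. It was -0.57 for EIF2B2, -0.45 for EIF2B3, -0.58 for EIF2D, -0.64 for EIF3D, -0.88 for EIF3H, -1.26 for EIF4A2 and -0.74 for EIF4G3. The WT call was lost in 13 of 18 alternatives for EIF3D and in 8 of 18 for EIF4G3. In WDM cells it was 0.87 for EIF1AD and -0.61 for EIF2A, -0.75 for EIF2B2, -0.47 for EIF2B3, -0.98 for EIF3D, -1.03 for EIF3E, -0.91 for EIF3H, -0.73 for EIF3I and -1.49 for EIF4A2. EIF4A2 was the only one of the 46 tested members called higher in cytosol and lower in granule RNA in both lines; its WT granule call was lost in 8 of 12 alternatives.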

How the results depend on the processing

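Of 140 named results, 103 kept their call in every alternative, 37 lost it in at least 1, and 0 changed direction. Counts of called members that moved by over 1.5 times were as follows. For tetracycline in WT cytosol (2), library size alone gave 1, DESeq2 4 and only the groups compared 1. For tetracycline in WDM cytosol (1), library size alone, no filter, DESeq2 and only the groups compared each gave 2 and the replicate block 3. For arsenite in cytosol, library size alone gave 4 and only the groups compared 2 in WT cells (17), and only the groups compared gave 1 in WDM cells (13). For WDM against WT, only the groups compared gave 22 untreated (8) and 2 in granule RNA with tetracycline (4), and DESeq2 gave 5 in granule RNA with arsenite (3). The cause was not tested.

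With 1 library left out, the counts ranged over 1 to 4 and 1 to 2 for tetracycline in WT and WDM cytosol, 2 to 35 and 1 to 15 for arsenite in cytosol, and 13 to 17 and 18 to 25 for arsenite in granule RNA. Between the lines they ranged over 6 to 8 untreated, 6 to 18 with tetracycline (18 without WT replicate 1) and 6 to 9 with arsenite in cytosol, and over 2 to 5 and 1 to 3 in granule RNA. Granule against cytosol gave 41 to 42, 39 to 42, 38 to 40 and 39 to 40, and the arsenite change of that fold change 6 to 12 in WT and 6 to 16 in WDM cells. The replicate block lost 3 named calls and moved no other count by over 1.5 times. At this depth, where 3 counts are 0.109 to 0.508 CPM, EIF4E1B was too low to test, while EIF3C, EIF4A1, EIF4E3 and EIF4EBP3 lie in other rows' spans. The split also moved with library size alone for arsenite in WDM granule RNA, to 8 higher and 20 lower, and for the enrichment change in WDM cells, to 3 and 7.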

Other observations

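The single-exon copies were measured beside their parent genes. EIF5AL1 gave granule over cytosol log2 fold changes of -2.38, -2.28, -1.99 and -1.87 where EIF5A gave -2.28, -2.07, -1.89 and -1.78, and whether its reads come from EIF5A was not tested. EIF2S3B, whose start matches that of EIF2S3, gave -1.54, -1.37, -0.72 and -1.62 where EIF2S3 gave -1.67, -1.27, -1.66 and -1.61; the third value of the copy did not pass the test.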
